A study of Homo sapiens with 12 samples.

Results

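The genes described here are 55 nuclear-encoded subunits of the mitochondrial respiratory chain and ATP synthase. They were chosen by name, as rows of the deposited count table whose gene identifier maps to a listed symbol. No measured value entered that rule, but the list was made with earlier results of these data known. All 55 were found among the 61552 genes of the table, and all 55 were among the 20304 genes that passed the filter on low counts. They comprise 25 subunits of complex I, 4 of complex II, 9 of complex III together with cytochrome c, 8 of complex IV and 9 of complex V. The libraries hold messenger RNA of 2 human neuroblastoma lines in culture, SK-N-AS and SK-N-BE(2), both described as wild type and each kept overnight with ML210 or as a control. ML210 covalently blocks GPX4, an enzyme that reduces lipid peroxides in membranes. The dose of ML210 and the treatment of the controls are not stated in the labels. Each line had 3 control and 3 ML210 libraries, 1 of each from each of 3 batches, which makes 4 groups, and SK-N-BE(2) is named in the design as the line with MYCN amplification. With 1 line of each kind, effects of the line and of MYCN cannot be told apart.

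The respiratory chain passes electrons from NADH (through complex I) and succinate (through complex II) to ubiquinone, from there through complex III and cytochrome c to complex IV, which reduces oxygen. Complexes I, III and IV pump protons across the inner mitochondrial membrane, and complex V, the ATP synthase, uses the gradient to make ATP. Most subunits are encoded in the nucleus, while a small core of complexes I, III, IV and V is encoded by mitochondrial DNA, and complex II is wholly nuclear. Nuclear subunit genes are known as broadly expressed housekeeping genes whose promoters often bind the factors NRF1, GABP (an ETS factor) and YY1 and respond to the coactivators of the PGC-1 family.

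The labels of the lines are contradicted by MYCN, so the lines are named below as labelled. MYCN stood at 3557 ± 122 CPM (read counts scaled by library size, SD, n = 3) in SK-N-AS-labelled controls and at 0.166 ± 0.0727 CPM in SK-N-BE(2)-labelled controls. GPX4 stood at 269 ± 11.2 and 247 ± 9.22 CPM in the same groups. Library totals lay between 54047293 and 83481963 counted reads. Of 12 markers of adrenergic neuroblastoma, 11 were lower and 1 higher in SK-N-BE(2)-labelled controls, with summed levels of 1540 to 1972 CPM against 9356 to 9831 CPM. None of the 12 was at 0 over a group, but TH, which makes the catecholamine precursor, stood at 0.167 to 0.607 CPM in SK-N-BE(2)-labelled controls. Of 11 tested markers of mesenchymal neuroblastoma, 10 were higher there, with sums of 3557 to 4367 CPM against 407 to 517.5 CPM. Blood markers summed to 264 to 330 CPM in SK-N-BE(2)-labelled controls, nearly all from PTPRC, while CD3E and HBB had no reads there. Of these 8 markers 3 were tested, with 2 called higher there and CD14 called lower, at a log2 difference of -2.17. For these marker counts, 35.2% of all genes tested were called lower and 33.9% higher between the controls. PTPRC was at 0 CPM in the control library labelled SK-N-AS of batch 1 and stood at 1.63 and 1.33 CPM in those of batches 2 and 3. Separate cultures are not stated beyond the batch label, and the p-values then measure only the spread among these libraries.

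Respiratory chain transcripts were lower in SK-N-BE(2)-labelled controls than in SK-N-AS-labelled ones. Of the 55 members, 41 were called lower and 2 higher at an adjusted p under 0.05 (edgeR quasi-likelihood test, Benjamini-Hochberg over all genes tested), and 12 were not called, where 69.2% of all genes tested were called in either direction. That is 74.5% of the members called lower, where 35.2% of all genes tested were called lower, and 3.64% called higher, where 33.9% of all genes were. The median log2 difference of the members was -0.75, against -0.0052 for all genes tested. Groups did not overlap for 40 members that were lower (37.7% of all genes) and for 2 that were higher (36.3%). In bulk RNA, a lower level of these transcripts per cell cannot be told apart from a different make-up of the RNA around them. The marker lists above and the mitochondrially encoded transcripts moved with the line label, and their part in these differences was not tested.

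Added up, the members took 10578, 10149 and 10933 CPM in SK-N-AS-labelled controls of batches 1, 2 and 3, and 6141, 6718 and 6270 CPM in SK-N-BE(2)-labelled ones. The groups did not overlap, and the mean of the second was 0.604 times the first. ATP5F1B alone, the catalytic beta subunit of ATP synthase, made up a large part of this sum with 2010 ± 78.3 CPM labelled SK-N-AS and 855 ± 17.7 CPM labelled SK-N-BE(2). Summed within a complex, the ratio was 0.636 for complex I, 0.699 for complex III with cytochrome c, 0.552 for complex IV and 0.541 for complex V. For each of these 4 the libraries of both groups did not overlap. Complex II differed in this sum. Its 4 subunits added up to 263, 258 and 283 CPM labelled SK-N-AS and to 261, 254 and 249 CPM labelled SK-N-BE(2), a ratio of 0.95 with overlapping groups.

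**Figure D1:**
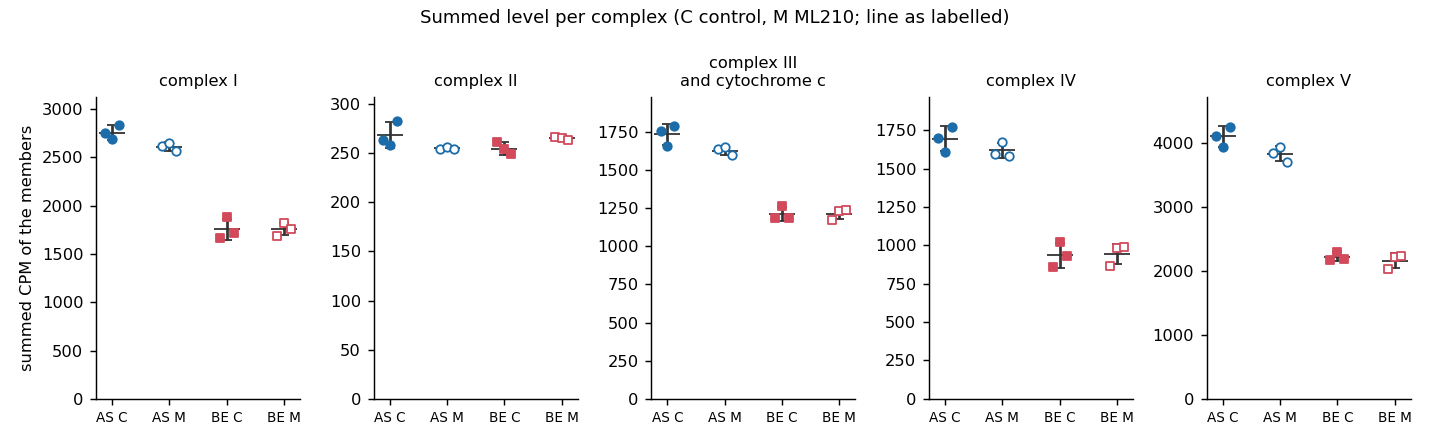
Summed CPM of the members of each complex in every library (points), with mean and SD over the 3 libraries of a group, for control (C) and ML210 (M) libraries labelled SK-N-AS (AS) and SK-N-BE(2) (BE). Complexes I, III, IV and V are lower in all 6 libraries labelled SK-N-BE(2), while the complex II sums lie between 249 and 283 CPM in all 12 libraries.

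The scale of the comparison moves these counts. With library totals in place of TMM scaling, the median of all genes moved from -0.0052 to 0.24, and the share of called genes that were lower moved from 50.9% to 39.3%. On that scale 34 members were lower and 9 higher, with a member median of -0.50. The distance of the member median from that of all genes was -0.74 on both scales, and 46 of 55 members lay below the median of all genes on both. A change of scale shifts all genes by nearly the same amount, so both values could hardly move and do not test the scaling. Under all 14 alternatives run for this comparison, 34 of the 41 lower members kept that call. The other 7 were NDUFA1, CYC1, COX6A1, COX8A, ATP5F1A, ATP5MC1 and ATP5MC3. All of these were not called with library totals, where each but ATP5MC1 had a log2 difference slightly above 0.

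**Figure D2:**
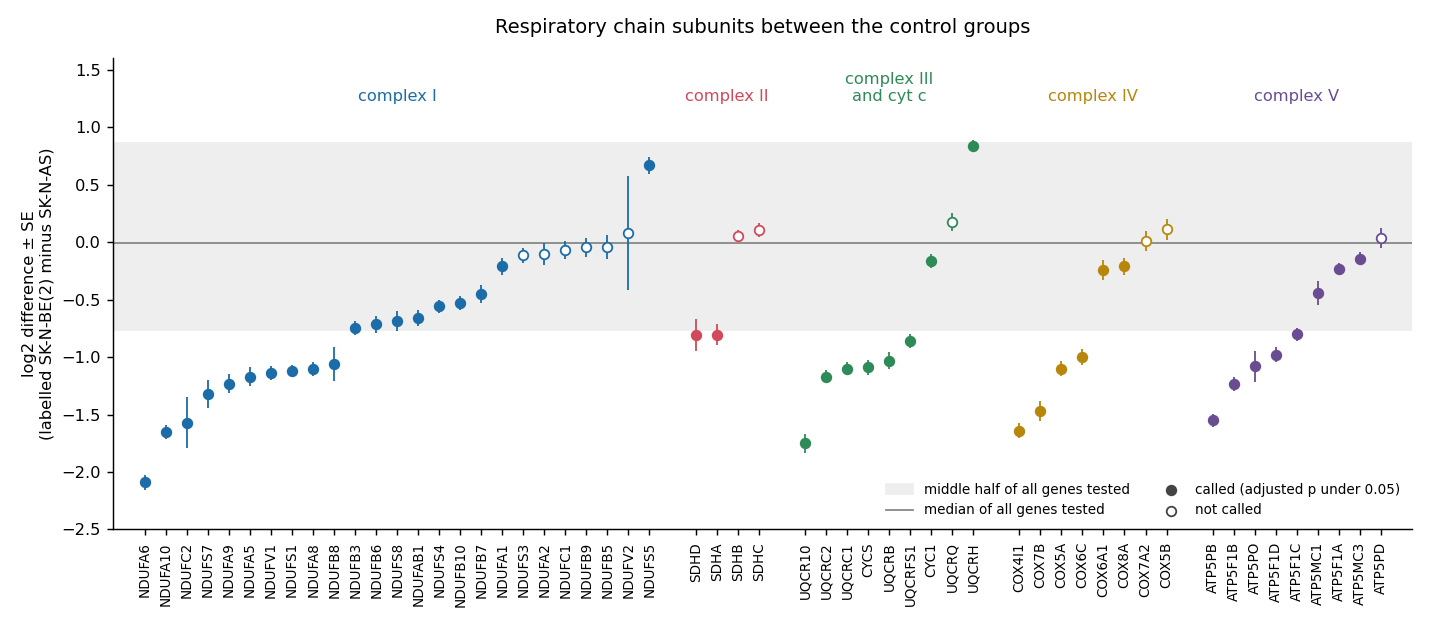
Log2 difference between the control groups (SK-N-BE(2)-labelled minus SK-N-AS-labelled) ± SE for each of the 55 members, by complex, with called members filled and the interquartile range of all genes tested shaded. Most members lie below the median of all genes tested (grey line), NDUFA6 lowest at -2.09, while NDUFS5 and UQCRH are called above it.

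Complex I, which oxidises NADH, had 18 members lower and 1 higher of 25. NDUFA6, an accessory subunit of the LYR family that binds the mitochondrial acyl carrier protein (chromosome 22, 42085525 to 42090955 on GRCh38), showed the largest difference of any member. It stood at 217, 212 and 225 CPM in SK-N-AS-labelled controls and at 49.8, 56.2 and 47.4 CPM in SK-N-BE(2)-labelled ones, and the groups were far apart. The log2 difference was -2.09 (SE 0.0633, adjusted p = 5.47e-12), a level 0.234 times as high. NDUFA10, an accessory subunit of the proximal membrane arm (chromosome 2, 239892450 to 240025402), stood at 237, 223 and 217 CPM against 69.1, 74.9 and 71 CPM. Its log2 difference was -1.65 (SE 0.0592, adjusted p = 2.58e-11). NDUFC2 followed at -1.57 (SE 0.219, adjusted p = 3.08e-05) from a low level of 16.4 and 5.54 CPM.

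The members of complex I that bind FMN or iron-sulfur clusters were lower, apart from NDUFV2, which is described with the pseudogenes. NDUFV1, which binds FMN and NADH, was at 218 ± 1.91 CPM labelled SK-N-AS and 98.8 ± 6.06 CPM labelled SK-N-BE(2) (log2 -1.14). The largest iron-sulfur subunit, NDUFS1, had a log2 difference of -1.12. NDUFS7 and NDUFS8, iron-sulfur subunits near the ubiquinone site, were lower, at -1.32 and -0.69. NDUFS3, a core subunit beside them, was at 83, 74.2 and 81.7 CPM against 69.3, 77.3 and 74.4 CPM, with overlapping groups and a log2 difference of -0.11 (95% interval -0.251 to 0.027). In the distal membrane arm, NDUFB8 had the largest difference of the 7 NDUFB members, at -1.06, and NDUFB3, NDUFB6, NDUFB7 and NDUFB10 were lower, at -0.75, -0.71, -0.45 and -0.53. NDUFB5 and NDUFB9 had overlapping groups and differences of -0.042 and -0.043, with intervals of -0.271 to 0.186 and -0.222 to 0.136.

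NDUFS5, an accessory subunit of the proximal membrane arm on chromosome 1 (39026318 to 39034636), went the other way. It stood at 139, 136 and 142 CPM labelled SK-N-AS and at 209, 242 and 213 CPM labelled SK-N-BE(2). All 3 of the second group were higher, with a log2 difference of 0.67 (SE 0.0711, adjusted p = 1.26e-06). Per kilobase of transcript it had rank 3 among the members in SK-N-BE(2)-labelled controls, at 404 CPM per kb.

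Complex II, succinate dehydrogenase, is shared with the citrate cycle. Its flavoprotein SDHA was at 16.6, 17.6 and 16.1 CPM labelled SK-N-AS and at 8.94, 9.50 and 10.3 CPM labelled SK-N-BE(2) (log2 -0.81, SE 0.0922, adjusted p = 2.7e-06). The membrane anchor SDHD was also lower, at -0.81 (SE 0.138, adjusted p = 0.000172). The iron-sulfur subunit SDHB and the other anchor SDHC were not called. SDHB was at 95.6, 92.8 and 99.2 CPM against 97.8, 101 and 99.6 CPM, overlapping groups whose log2 difference of 0.056 had an interval of -0.0518 to 0.163. SDHC had a difference of 0.11 (interval -0.0217 to 0.235). With library totals both were called higher, at 0.30 and 0.36.

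In complex III, 7 of 9 members, cytochrome c included, were lower and 1 was higher. UQCR10, a small subunit next to cytochrome c1 (chromosome 22, 29767369 to 29770413), stood at 46.1, 42.6 and 44 CPM labelled SK-N-AS and at 12.9, 13.1 and 13.6 CPM labelled SK-N-BE(2) (log2 -1.75, SE 0.0845, adjusted p = 4.01e-10). The core proteins UQCRC2 and UQCRC1 were lower, at -1.17 and -1.10, and the Rieske iron-sulfur protein UQCRFS1 at -0.86. CYCS, which encodes the soluble carrier cytochrome c, stood at 317, 305 and 346 CPM against 163, 147 and 145 CPM, with no overlap (log2 -1.09). CYC1, cytochrome c1, was called lower at -0.16 (adjusted p = 0.0342), but its groups overlapped.

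UQCRH, the hinge protein that links cytochrome c1 to cytochrome c (chromosome 1, 46303631 to 46316776), was the most clearly higher member. It stood at 175, 175 and 185 CPM labelled SK-N-AS and at 300, 335 and 320.6 CPM labelled SK-N-BE(2), a log2 difference of 0.84 (SE 0.0523, adjusted p = 5.3e-09). Per kilobase it had rank 5 among the members labelled SK-N-AS (295 ± 9.55 CPM per kb) and rank 1 labelled SK-N-BE(2) (527 ± 29.8 CPM per kb). ATP5F1B, at 465 ± 9.62 CPM per kb, came next in SK-N-BE(2)-labelled controls. UQCRHL, a separate row for a near-identical copy of UQCRH, was also called higher, at 0.86 (adjusted p = 0.00342), and reads of the copies may not be told apart. UQCRQ, a ubiquinone-binding subunit, had a difference of 0.18 (adjusted p = 0.0529) and was called higher under 8 of 14 alternatives, the replicate block among them.

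**Figure D3:**
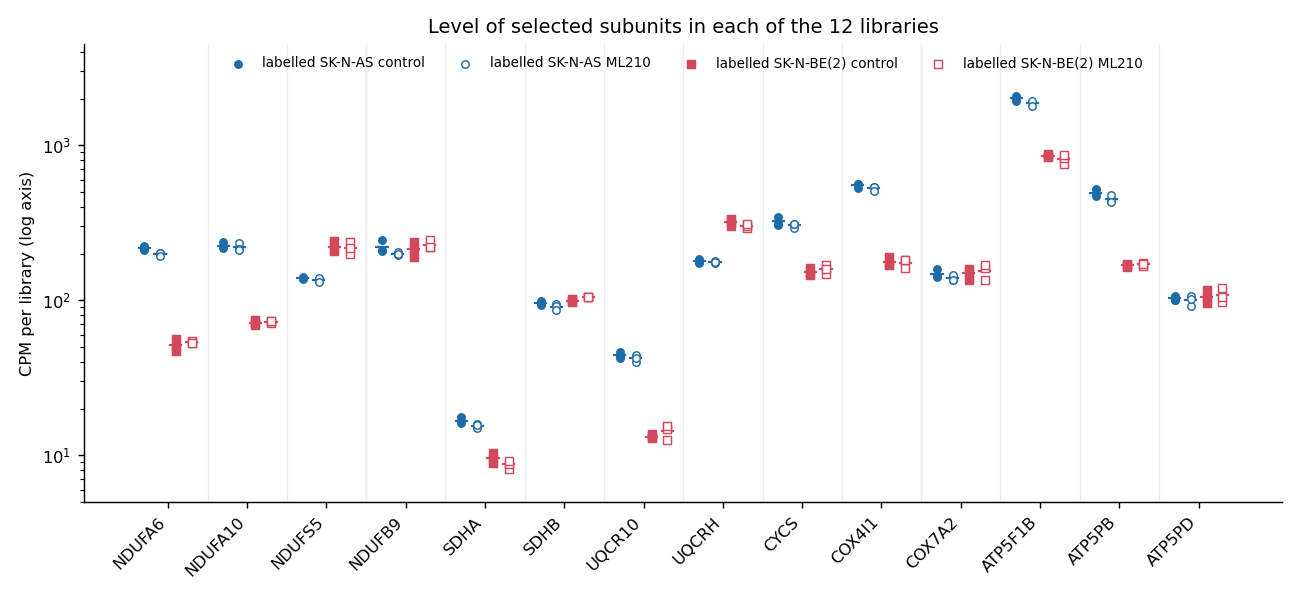
CPM of 14 members in each of the 12 libraries (log axis), with a bar at the group mean. NDUFA6 lies at 212 to 225 CPM in one control group and at 47.4 to 56.2 CPM in the other and UQCRH from at most 185 to at least 300 CPM, and SDHB, NDUFB9, COX7A2 and ATP5PD overlap between the controls.

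Complex IV, cytochrome c oxidase, had 6 of 8 nuclear members lower and none higher. COX4I1, the regulatory subunit that binds ATP (chromosome 16, 85798633 to 85807044), stood at 562, 533 and 559 CPM labelled SK-N-AS and at 169, 191 and 171 CPM labelled SK-N-BE(2). The log2 difference was -1.64 (SE 0.0655, adjusted p = 6.8e-11). In SK-N-AS-labelled controls it had rank 2 per kilobase, at 631 CPM per kb, and in SK-N-BE(2)-labelled ones rank 8, at 203 CPM per kb. COX7B and COX5A were lower, at -1.47 and -1.10, and COX6C at -1.0. COX6A1 and COX8A were lower by less, at -0.24 and -0.21. COX5B and COX7A2 had overlapping groups, with differences of 0.11 (interval -0.0943 to 0.317) and 0.0083 (interval -0.176 to 0.193).

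In complex V, 8 of 9 members were lower and none was higher. ATP5PB, the b subunit of the peripheral stalk (chromosome 1, 111448864 to 111462773), stood at 491, 470 and 524 CPM against 169, 173 and 164 CPM, with no overlap (log2 -1.55, SE 0.056, adjusted p = 2.75e-11). ATP5F1B stood at 2028, 1924 and 2078 CPM against 854, 873 and 838 CPM (log2 -1.23, SE 0.0607). The alpha subunit ATP5F1A, which forms the catalytic ring with beta in equal number, differed by less, at -0.23 (SE 0.0514), from 580 ± 19.4 to 495 ± 12.3 CPM. The stalk subunit ATP5PO, the oligomycin sensitivity protein, was lower, at -1.08, while ATP5PD, the d subunit of the same stalk, differed by 0.036 (interval -0.145 to 0.218). ATP5MC1 and ATP5MC3, which encode the same mature ring protein, were lower, at -0.44 and -0.14.

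Some promoters of these members carry short sequences known to bind NRF1, ETS factors or YY1, shown here because they are shared by members that were lower and by members that were not. Promoters, from 250 bases before to 50 after the gene start, came from RefSeq on GRCh38.p14 and matched 44 of the 55 members. GCGCATGC, the NRF1 core, was found on either strand in 9 of the 44 (20.5%), against 5.12% of the 11595 promoters of tested protein-coding genes. Windows around it, with the motif in capitals and each read on the strand of the gene, 5′ to 3′, are given for all 9, with 1 window for a promoter that holds it more than once.
NDUFA6 (chr22:42090920-42090949, minus strand): tctgtagatgaGCATGCGCagcacccaccg
NDUFA8 (chr9:122159765-122159794, minus strand): tgttgccggatGCGCATGCgcaggcgccgt
NDUFS7 (chr19:1383823-1383852, plus strand): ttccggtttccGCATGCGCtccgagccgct
CYCS (chr7:25125411-25125440, minus strand): catgctcgccaGCATGCGCgcgcaggtcct
ATP5F1C (chr10:7788144-7788173, plus strand): ggggagcttcgGCGCATGCgcgctgaggcc
SDHD (chr11:112086752-112086781, plus strand): cagctgtgtttGCGCATGCgcgacgggtgt
COX6A1 (chr12:120437884-120437913, plus strand): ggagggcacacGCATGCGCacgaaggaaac
SDHB (chr1:17054214-17054243, minus strand): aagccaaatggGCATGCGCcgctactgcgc
COX5B (chr2:97645915-97645944, plus strand): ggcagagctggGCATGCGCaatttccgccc

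Of the 9 promoters with this motif, 7 belonged to members called lower, with a median log2 difference of -0.81, and of the 35 without it, 27 did, with a median of -0.71. The YY1 motif AAGATGGCG was found in 6 promoters (13.6%, against 3.58%), just after the gene start in each.
NDUFA6 (chr22:42090729-42090757, minus strand): atgctttggcAAGATGGCGgggagcggcg
NDUFA9 (chr12:4649114-4649142, plus strand): attgtgggaaAAGATGGCGgctgccgcac
NDUFS7 (chr19:1383914-1383942, plus strand): ggccgaggccAAGATGGCGgtgctgtcag
NDUFS4 (chr5:53560650-53560678, plus strand): tgcctgcagcAAGATGGCGgcggtgtcaa
UQCRC1 (chr3:48609605-48609633, minus strand): ctgcagctggAAGATGGCGgcgtccgtgg
SDHB (chr1:17054004-17054032, minus strand): gtcaggagccAAGATGGCGgcggtggtcg

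Of the 6, 5 belonged to members called lower. The ETS motif CCGGAAGT was found in 7 promoters (15.9%, against 8.01%), which included that of UQCRH.
UQCRH (chr1:46303640-46303669, plus strand): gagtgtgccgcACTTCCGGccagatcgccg
UQCRQ (chr5:132866577-132866606, plus strand): aatggtatctcCCGGAAGTtacctcacgac
COX5B (chr2:97646014-97646043, plus strand): gaagcccgcccCCGGAAGTccctcctgtct
ATP5PD (chr17:75047053-75047082, minus strand): cccgggaagatACTTCCGGaaccagccctc
NDUFS1 (chr2:206159584-206159613, minus strand): aggctggggccACTTCCGGcggaactgcgg
COX8A (chr11:63974590-63974619, plus strand): ccagctccagaACTTCCGGccagcgcagcc
SDHD (chr11:112086784-112086813, plus strand): accgcctctcgACTTCCGGttcacccagca

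Of these 7, 3 belonged to members called lower and 1 to a member called higher, with a median of 0.036, while of the 37 without the motif 31 were lower, with a median of -0.81. Where GCGCATGC is followed by GC, both strands match and the motif was counted once for a promoter. At least 1 of the 3 motifs was present in 17 of 44 promoters (38.6%, against 15.4%). A match is a description of letters and says nothing of binding in these cells.

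The differences of the members correlated with those of the genes around them, and most members lay lower than these neighbours. For each member, the median log2 difference between the controls was taken over tested protein-coding genes within 10 Mb, other members left out, which gave 31 to 342 neighbours. This extends the medians by chromosome and was added with the values in view. Of the 55 members, 49 lay below the median of their neighbours, and the median distance was -0.66. The neighbours' medians centred at -0.10, against a member median of -0.75, so this largely restates the difference between the controls. Across members, Pearson's r between a member and its neighbours was 0.71 (n = 55, a description, since nearby members share neighbours). Neither value was computed for other genes, so they are not shown to be particular to the members. On chromosome 22, where the median of all tested protein-coding genes was -0.95, NDUFA6 and UQCR10 had neighbours at -1.12 and -0.92. COX4I1 and NDUFC2 also had low neighbours, at -1.04 and -1.08.

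NDUFS5 and UQCRH, the members called higher, lay among neighbours that were themselves higher, at 0.64 and 0.62. SDHB, on the same chromosome, had neighbours at 0.54 and lay below them at 0.056. ATP5PB, further along that chromosome, had neighbours at -0.35. ATP5F1A, whose own difference was -0.23, had neighbours at 0.93. SDHD was below the median of all genes tested but above its neighbours, which had the lowest median of any member's, at -1.31. The number of copies of these regions was not measured, and its part in these differences was not tested.

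**Figure D4:**
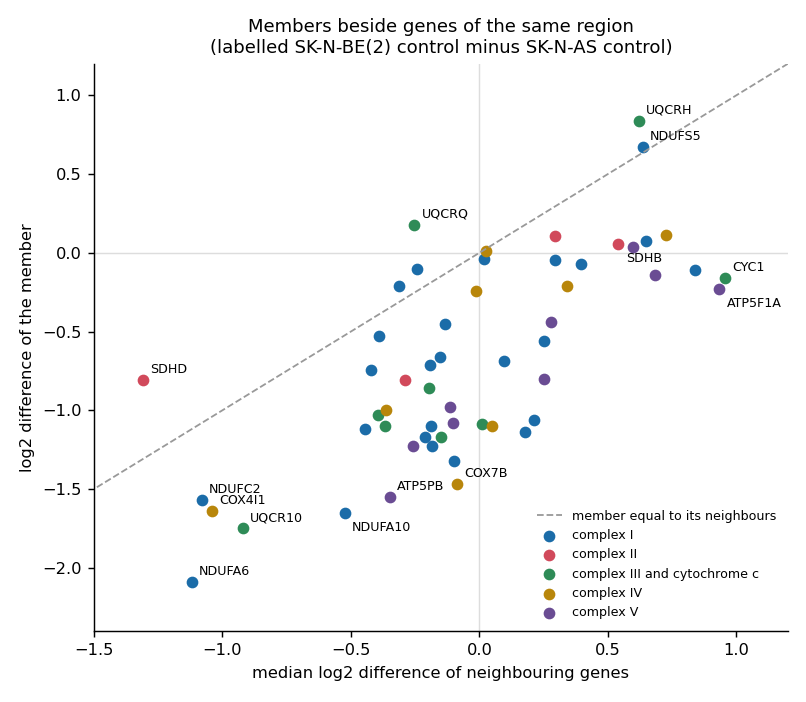
Log2 difference of each member between the controls (vertical axis) against the median log2 difference of protein-coding genes within 10 Mb (horizontal axis), coloured by complex, with the line of equality dashed. 49 of 55 points lie below the line, and NDUFS5 and UQCRH, at upper right, lie on or just above it.

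Counts of some members are uncertain because near-identical copies exist. Rows named as pseudogenes were present for 35 members, and in 3 members these rows held over 10% of the reads of the gene in some group. NDUFV2, which encodes an iron-sulfur subunit of complex I, had 0.385 ± 0.209 CPM in SK-N-AS-labelled controls and 0.409 ± 0.153 CPM in SK-N-BE(2)-labelled ones, while its pseudogene row held 749% to 1094% of its reads. Whether reads of the gene were counted there was not tested. The pseudogene rows of SDHA held 112% of its reads in SK-N-AS-labelled controls and 165% in SK-N-BE(2)-labelled ones. Exons of 29 members overlapped another gene on either strand. For 14 of them a gene on the same strand was involved, NDUFC2 and NDUFB8 among them. Without these 14 and the members with large pseudogene rows, 40 members were left, of which 29 (72.5%) were lower and 2 higher, with a median of -0.73. Members with overlaps only on the opposite strand, such as NDUFA6, COX4I1 and ATP5PB, were kept. Since the handling of strand is not known, these 40 may still share reads.

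Genes that work with the members were counted in the same way between the controls, where 35.2% of all genes tested were lower and 33.9% higher. Of 24 other structural subunits, 18 were called lower and 2 higher (median -0.65), with ATP5MG (-1.74), NDUFV3 (-1.26) and NDUFA12 (-1.01) among the lower ones. NDUFA13, highest of this list at 1.19, stood at only 0.395 CPM in SK-N-AS-labelled and 0.899 CPM in SK-N-BE(2)-labelled controls. NDUFA7 was also near 0, at 0.267 and 0.314 CPM, so little can be said of either. The 13 mitochondrially encoded subunits had 11 lower and 1 higher, with a median of -1.55 and MT-ND1 at -2.17. Assembly factors were lower in 12 of 16 genes for complex I (3 higher), 1 of 4 for complex II (1 higher), 6 of 9 for complex III, 12 of 26 for complex IV (5 higher) and 4 of 5 for complex V. COX17, the copper chaperone of complex IV, had the largest of these differences, at -2.91 (SE 0.11, adjusted p = 4.23e-11). Citrate cycle enzymes had 10 of 12 lower and 2 higher, with citrate synthase CS at -1.03. Coenzyme Q synthesis had 5 of 13 lower and 2 higher. The lower shares of coenzyme Q synthesis (38.5%) and of complex IV assembly (46.2%) were near that of all genes, and that of complex II assembly (25%) was under it.

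Among 13 transcriptional regulators, 8 were lower and 4 higher. The coactivator PPARGC1A, or PGC-1 alpha, stood at 24.0, 22.1 and 25.9 CPM in SK-N-AS-labelled controls and at 0.308, 0.524 and 0.753 CPM in SK-N-BE(2)-labelled ones (log2 -5.48, SE 0.371, adjusted p = 1.12e-07). Its relative PPARGC1B was lower, at -1.51 (adjusted p = 3.25e-09), while the nuclear receptor ESRRA was higher, at 0.88 (adjusted p = 2.4e-08). Of the 10 tissue isoforms and alternative subunits listed, 7 were tested, with 3 lower and 3 higher. COX7A2L, a factor of supercomplex assembly, was lower, at -0.97, and NDUFA4L2 and COX4I2, known as hypoxia-induced forms, stood at 8.35 ± 9.27 and 1.15 ± 0.618 CPM labelled SK-N-AS and near 0 labelled SK-N-BE(2).

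ML210 changed no member past the threshold in either line, on average over both, or in the difference of both responses. In the libraries labelled SK-N-AS, 0 of 55 were called, where 0.0296% of all genes tested were called. In SK-N-BE(2)-labelled ones, 0 of 55 were called, where 1.37% of all genes were (2.24% with the replicate block). On average over both lines 0 were called (1.23% of all genes), and for the difference of the responses 0 (0.00493% of all genes). DESeq2 and limma-voom also called no member in any of these comparisons. The 95% intervals set limits on what could have been missed. They lay within 0.5 of 0 on the log2 scale for 53 members in each line, and within 0.3 for 42 labelled SK-N-AS and 48 labelled SK-N-BE(2). The exceptions to the wider limit were NDUFC2 and NDUFV2. For the difference of the responses the intervals were wider, within 0.5 of 0 for 51 members and within 0.3 for 23.

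**Figure D5:**
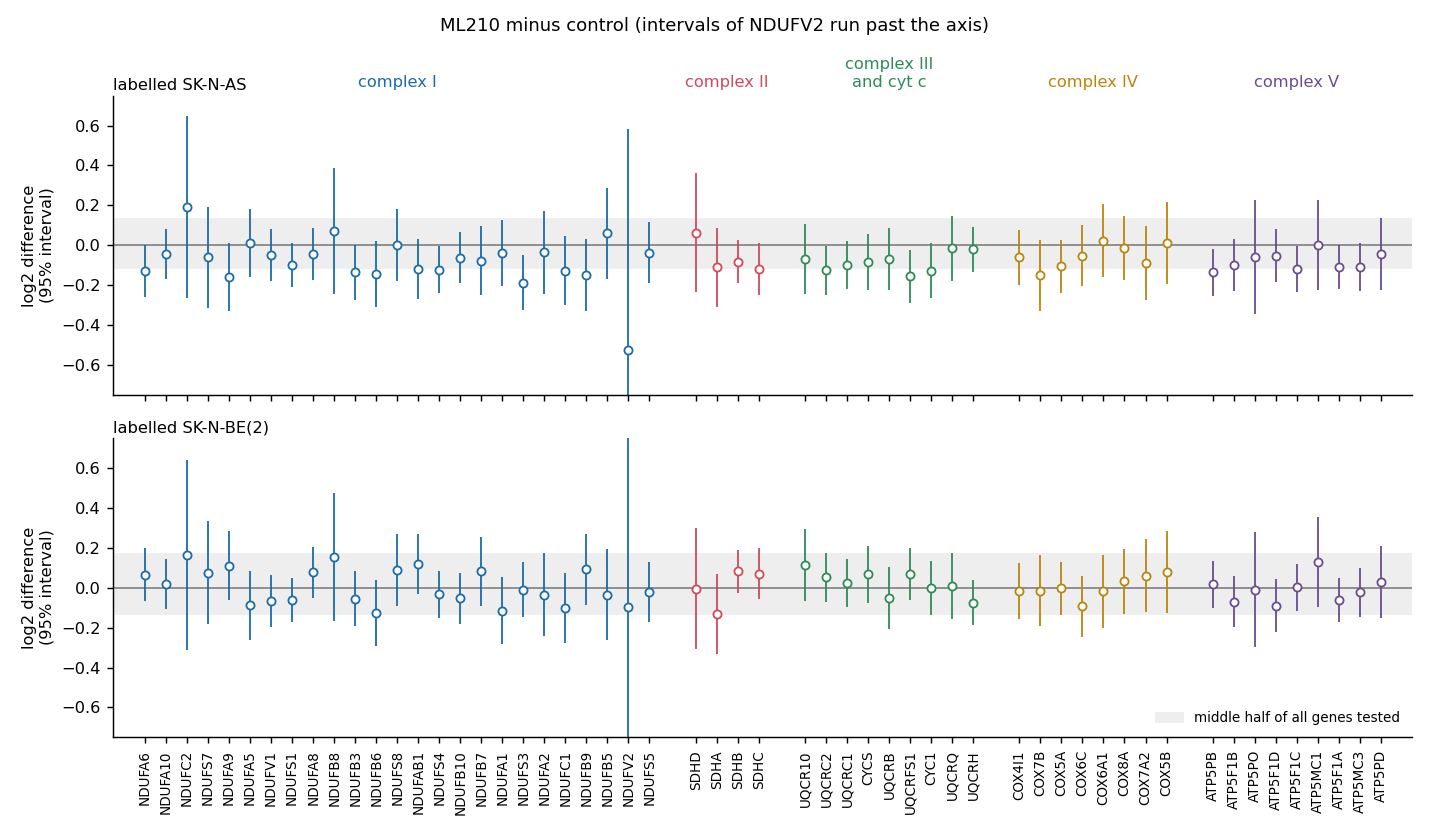
Log2 difference of ML210 minus control with 95% intervals for each member in libraries labelled SK-N-AS (top) and SK-N-BE(2) (bottom), the band spanning the interquartile range of all genes tested. In the upper panel 46 of 55 points lie below 0, in the lower panel 29, and none is called.

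In the libraries labelled SK-N-AS, members lay slightly to the low side with ML210. Of the 55, 46 (83.6%) had a log2 difference below 0, against 52% of all genes tested, and the median was -0.076 against -0.0077. This lean was not particular to the members. Below 0 were also 83.3% of other structural subunits, 91.7% of citrate cycle enzymes and 75% of complex I assembly factors. The share was 50% for complex II assembly factors and 57.1% for tissue isoforms and alternative subunits. At an unadjusted p under 0.05, 6 members were lower and none higher, where 4.19% of all genes were lower and 2.69% higher. These were NDUFS3, NDUFS4, UQCRC2, UQCRFS1, ATP5F1C and ATP5PB. Groups did not overlap for 17 lower members (8.86% of all genes) and for no higher member (6.01%). With library totals the median was -0.022 and 34 members were below 0. With either scaling 46 lay below the median of all genes, a count that a change of scale can hardly alter.

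NDUFS3 had the smallest p in complex I in these libraries. It stood at 83, 74.2 and 81.7 CPM in controls and at 72.2, 71.8 and 66 CPM with ML210, just without overlap, a log2 difference of -0.19 (SE 0.0647, adjusted p = 0.587). UQCRFS1 stood at 175, 158 and 170 CPM in controls and at 157, 152 and 142 CPM with ML210 (-0.15, SE 0.0607, adjusted p = 0.658). ATP5PB stood at 491, 470 and 524 CPM and at 445, 475 and 433 CPM (-0.14, SE 0.0547, adjusted p = 0.678), with overlapping groups. In complexes II and IV the smallest p belonged to SDHC (-0.12, adjusted p = 0.756) and COX7B (-0.15, adjusted p = 0.788). Summed over all members, the ML210 level was 0.94, 1.00 and 0.888 times the control in batches 1, 2 and 3, so that batch 2 showed no difference. All 13 mitochondrially encoded subunits lay below 0, with a median of -0.33 and none called, and their summed level was 46090 to 58938 CPM in controls and 38147 to 46227 CPM with ML210, ranges that overlapped. By batch this sum was 0.882, 0.718 and 0.784 times the control. The part of the mitochondrially encoded transcripts in the members' values was not tested.

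In the libraries labelled SK-N-BE(2) the members were spread evenly around 0 with ML210. Of the 55, 29 (52.7%) lay below 0, against 48.7% of all genes, with a median of -0.0043. None reached an unadjusted p under 0.05, where 6.33% of all genes were lower and 7.12% higher at that level. NDUFAB1, the acyl carrier protein, had the smallest p, from 105, 113 and 105 CPM to 122, 121 and 108 CPM (log2 0.12, SE 0.0695, adjusted p = 0.518). SDHB was higher in all 3 ML210 libraries than in any control, from 97.8, 101 and 99.6 CPM to 105, 106 and 106 CPM, a difference of 0.081 that did not pass the test (adjusted p = 0.547). It was the 1 higher member whose groups did not overlap (9.22% of all genes), and NDUFB6 was the 1 lower member (8.18%). The smallest p of complexes III, IV and V belonged to UQCRH (-0.076), COX6C (-0.094) and ATP5F1D (-0.091), with adjusted p of 0.6, 0.65 and 0.6. PPARGC1B was the only gene of the companion lists of regulators, assembly factors and subunits that was called. It went from 9.21, 8.12 and 9.84 CPM to 13.9, 13.9 and 12.8 CPM (log2 0.58, SE 0.0893, adjusted p = 0.0107).

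Averaged over both lines, 41 members lay below 0 (51% of all genes), with a median of -0.037. With library totals 31 were below 0 and the median was -0.0064, and with 1 library left out it lay from -0.056 (without ML210 of batch 2) to -0.020 (without the control of batch 2), both of SK-N-BE(2)-labelled libraries. Of the members below 0, NDUFB6, NDUFS1 and ATP5F1A were lower at an unadjusted p under 0.05, where 7.53% of all genes were, and none was higher (6.53%). NDUFB6, a subunit of the distal membrane arm, differed by -0.13 (SE 0.0542, adjusted p = 0.276). The difference of the responses, that of SK-N-BE(2)-labelled libraries minus that of SK-N-AS-labelled ones, was below 0 for 11 members (20%, against 48.5% of all genes), with a median of 0.079. With library totals 24 members were below 0 and the median was 0.030, and with 1 library left out the median lay from 0.020 (without the batch 1 control of SK-N-BE(2)-labelled libraries) to 0.113 (without the batch 2 ML210 library of SK-N-AS-labelled ones). At an unadjusted p under 0.05, 7 members were higher (4.5% of all genes) and none lower (2.66%). NDUFA9, which sits beside the ubiquinone site, had the largest of these at 0.27 (adjusted p = 0.656), followed by NDUFAB1 at 0.24 (adjusted p = 0.645) and UQCRFS1 at 0.22 (adjusted p = 0.621). None passed the test, so the responses of the members were not shown to differ between the lines.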

How the data were processed

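Messenger RNA from 12 libraries was analysed, 3 in each of 4 groups named in the sample titles. The deposited values were counts of reads per gene, whole numbers that were not normalized. HISAT2 2.2.1, featureCounts 2.0.5, FastQC and Trimmomatic (version given as 1.4) are named for GRCh38 and hg38, per the submitters' processing notes. Per the labels' protocols, the libraries came from a stranded mRNA kit. How featureCounts handled strand, multi-mapping and read pairs, and with which annotation, is not given in the sources used here, so overlapping genes and near-identical copies may share reads. Of the 61552 identifiers, 61399 were named from a table of gene names and 145 from GENCODE 29, which also gave coordinates and transcript lengths. Levels per kilobase used the annotated principal transcript with the longest coding sequence, untranslated ends included. The ranks per kilobase depend on that choice, and which transcripts the cells used was not tested.

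Genes were filtered with filterByExpr and tested with edgeR 4.0.16 in R 4.3.3 (TMM scaling, robust glmQLFit and glmQLFTest, two-sided) in 1 fit of all 12 libraries with a coefficient per group and 8 residual degrees of freedom. Benjamini-Hochberg adjustment ran over all 20304 genes, with calls made at adjusted p under 0.05. CPM used TMM-scaled totals. Library totals of 54047293 to 83481963 reads limit precision only for members with few reads, such as NDUFV2, with as few as 9 in a library. Intervals are 95% intervals of the fitted difference. The fitting code was tested on simulated data with known differences in 200 genes, drawn without regard to membership. For ML210, a simulated log2 difference of 0.5 was called for 25.8% of genes labelled SK-N-AS and 27.3% labelled SK-N-BE(2). At a difference of 1 these shares were 74.2% and 69.7%. These shares cover genes of many levels and spreads, and were not computed for the members. The members' own median SE was 0.0709 labelled SK-N-AS and 0.0715 labelled SK-N-BE(2), so the intervals, not these shares, limit what was missed among them.

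The members and lists were chosen with earlier results of these data known. Named between the controls were, per complex, up to 3 called members each way with the largest difference and 1 direction in all same-batch pairs, and for ML210 the member of each complex with the smallest p. From the other lists up to 4 genes with the smallest adjusted p were eligible, and other members and genes described were chosen after their values were seen. The lists were other structural subunits, isoforms, assembly factors per complex, coenzyme Q synthesis, regulators, mitochondrially encoded subunits, citrate cycle enzymes and markers of adrenergic and mesenchymal neuroblastoma, blood, endothelial, epithelial and Schwann cells. In SK-N-BE(2)-labelled controls, 4 of 6 tested endothelial markers were called lower and 1 higher. Of 5 tested epithelial markers 3 were called higher and 1 lower, and of 3 tested Schwann cell markers 2 were called lower. Of all genes tested, 35.2% were called lower and 33.9% higher in this comparison, so counts this small say little.

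The batch label is shared by same-numbered libraries, which pairs them. Deviations of control and ML210 libraries of a batch correlated at 0.357, 0.068 and 0.121 labelled SK-N-AS and at 0.096, 0.12 and 0.169 labelled SK-N-BE(2). Libraries of different batches correlated at -0.269 to 0.189 labelled SK-N-AS and at -0.1 to -0.007 labelled SK-N-BE(2). Labelled SK-N-AS, the values of batches 2 and 3 thus lay within the range of unpaired libraries. Controls of both lines correlated at -0.082, -0.003 and -0.027 within a batch and at -0.055 to 0.072 across batches. Alternatives were RLE scaling, library totals, no filter, a filter of 1 CPM in 3 libraries, DESeq2 1.42.0, limma-voom 3.58.1, a fit of only the libraries compared, a replicate block, and leaving out each library.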

Additional observations from a re-analysis of the deposited data

How the results depend on the processing

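Between the controls, the count of members called lower stayed within 1.5 times of 41 under every alternative run, from 34 with library totals to 41, and with 1 library left out it lay from 36 to 40. The count called higher, 2 as reported, was 9 with library totals, 4 with a filter of 1 CPM in 3 libraries, and from 2 to 4 with 1 library left out, the 4 being reached without the control library labelled SK-N-BE(2) of batch 3. The added members were UQCRQ and SDHC in both cases of 4. With library totals they were SDHB, SDHC, UQCRQ, NDUFB9, COX5B, COX7A2 and ATP5PD, and the median of the members moved to -0.497 as that of all genes moved to 0.243. With 1 library left out the member median lay from -0.78 to -0.691. With the replicate block the controls gave 41 lower and 3 higher, and the ML210 medians were -0.0766 labelled SK-N-AS, -0.0045 labelled SK-N-BE(2), -0.0366 on average and 0.0805 for the difference, with 0 members called. The block changed no member's call for ML210, and between the controls only that of UQCRQ. A block within each line was not run for the controls and gave ML210 medians of -0.0763, -0.00353, -0.037 and 0.0799 in the same order. Over all alternatives the share of all genes called for ML210 ranged from 0.0148% to 0.278% labelled SK-N-AS, from 0.241% to 6.83% labelled SK-N-BE(2), from 0.291% to 6.11% on average and from 0% to 0.763% for the difference. The highest were with DESeq2 for the first, the block within each line for the next 2, and without the ML210 library labelled SK-N-BE(2) of batch 3 for the last, which also gave 5.97% labelled SK-N-BE(2). None of these alternatives called a member for ML210, while the median labelled SK-N-BE(2) lay from -0.0441 to 0.0359 with 1 library left out. The members named by the rule kept their direction and their side of the threshold under all alternatives run. Between the controls the rule took called members with the largest differences, and for ML210 no member was called. This outcome was therefore nearly set in advance and is no test of the other members. Of the 41 members called lower, 6 changed sign under some alternative. NDUFV2 did not pass the filter of 1 CPM and has no value there, and its few reads limit what can be said of it.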
